A study of Mus musculus with 24 samples.

Results

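The genes described here build the contractile unit of skeletal muscle or release and take back the calcium that drives it. They are 43 genes fixed by name: filament, M-band and Z-disc proteins, assembly and attachment proteins, calcium release and uptake proteins, and creatine kinases. Each was found on the array by its annotated gene symbol and each had 1 probe set, so the list makes up 43 of the 23279 gene symbols in the deposited table. Levels were followed on 24 single-colour microarrays of cells sorted from mouse tibialis anterior, a muscle of the lower leg, before or after injury by injected cardiotoxin, a venom toxin that destroys muscle fibres. The satellite cells (the stem cells of muscle fibres) were sorted as positive for alpha7-integrin, with CD34 positive or low, and negative for CD45, Sca1 and CD31. The endothelial cells, which line blood vessels, were sorted as CD45 negative and positive for Sca1, CD34 and CD31. Arrays of both cell types come from uninjured muscle (day 0) and from days 2, 4 and 8 of regeneration, which makes 8 groups of 3 biological replicates. No transgene, deletion or drug is named for any group. Strain, sex and age were not given in the sources used here, nor was it given whether 1 replicate is 1 animal.

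A sarcomere is assembled from thick filaments of myosin, thin filaments of actin, Z-discs that anchor the thin filaments and M-bands that link the thick ones. Titin spans the distance from Z-disc to M-band and nebulin lines the thin filament. Contraction starts when a voltage sensor in the surface membrane opens the ryanodine receptor of the sarcoplasmic reticulum, calcium leaves its store on calsequestrin, and the SERCA pumps carry it back. In regenerating muscle, satellite cells become myoblasts that stop dividing, switch on Myog and fuse into new fibres, and sarcomere genes are known to follow Myog.

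The arrays carried the markers of their sorts, with limits that touch the members. The mean over 9 satellite cell and myoblast markers was 7.78 to 7.84 (log2) on the satellite arrays of day 0 and 4.51 to 4.60 on the endothelial ones. On the satellite arrays of day 2 it was 5.01 to 5.15, while the mean over 12 leukocyte markers was 9.31 to 10.85, against 3.70 to 4.22 on day 0. These day 2 arrays therefore go against the marker content of a satellite cell sort. By the calls defined below, 6 of the 9 markers were lower there than on day 0 and 0 were higher. Pax7 went from 9.80, 8.76 and 9.28 to 4.67, 5.70 and 5.16. Myog was at 5.23, 5.76 and 5.35 on day 0, not far above endothelial day 0 (5.10, 4.85 and 4.76), and at 5.11, 5.02 and 5.27 on day 2. Its level therefore says little about satellite cell content. The satellite arrays of day 0 also held markers of other cells. The mean over 10 pericyte and smooth muscle markers was 9.05 to 9.83 there and 6.65 to 7.55 on endothelial day 0. Over 10 fibroadipogenic markers it was 6.94 to 7.22 and 4.26 to 4.43. On the satellite arrays of day 8, replicate 1 stood apart for mature fibre genes: the mean over 16 myofibre genes outside the list was 6.52 there, against 8.49 and 8.58 on replicates 2 and 3. In sorted bulk samples, fewer cells of a type and less RNA per cell cannot be told apart. Array medians ran from 4.11 to 4.40, and precision is limited by having 3 arrays per group.

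In satellite cells the members moved in 3 ways. Of the 43, 40 passed the filter on low values (above the array median on at least 3 arrays), and Myom2, Actn2 and Smpx did not. A member is called higher or lower at a limma adjusted p under 0.05 over all 14064 genes tested, with a log2 difference of at least 1 either way. Against day 0, 10 members were higher and 2 lower on day 4, while 6.53% of all genes tested were called higher and 5.47% lower. By day 8, 23 were higher and 0 lower, with 4.38% and 2.00% of all genes. At day 2, 0 were higher and 8 lower, with 10.9% and 9.67% of all genes. At an unadjusted limma p under 0.05, 1 member was lower on day 8 and 0 were higher on day 2. Over the 40 members, the median differences of days 2, 4 and 8 from day 0 were -0.22, 0.40 and 1.74, beside -0.03, 0.01 and -0.01 over all genes tested. These counts are a description, since a member high in 1 group alone could pass the filter through that group. Myoz1, Myoz2, Nrap and Sln lay above the array median on just 3 of the 24 arrays, which include day 8 replicates 2 and 3 in each case.

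The early risers are the 10 members called higher by day 4: Ttn, Mylpf, Myl4, Mybph, Neb, Actn3, Klhl41, Ryr1, Cacng1 and Atp2a1. The late risers are the 14 called higher on day 8 and not on day 4: Myl1, Mybpc1, Mybpc2, Lmod2, Myoz1, Myoz2, Myot, Nrap, Cacna1s, Trdn, Casq1, Sln, Pvalb and Ckm. A further 7 were called lower on some day and higher on none: Myom1, Tpm2, Des, Cryab, Xirp1, Jph2 and Casq2. The remaining 9 were not called against day 0: Tpm1, Tpm3, Lmod3, Tcap, Ldb3, Unc45b, Jph1, Atp2a2 and Ckmt2. The classes use the measured values and so describe them. Early risers differed from day 0 by a median of 2.45 on day 4 and 2.61 on day 8, and late risers by 0.31 and 2.24. Compared directly, day 8 was called higher than day 4 for 6 of the 14 late risers (Myl1, Mybpc2, Lmod2, Myoz1, Myot and Ckm), for 0 of the 10 early ones and for Casq2. The call of Myoz1 (adjusted p = 0.0496) was lost in 24 of 30 alternative fits, all 3 replicate blocks included (adjusted p up to 0.262). In that comparison 1.16% of all genes tested were called higher and 0.519% lower. The other 8 late risers therefore have no called difference between day 4 and day 8.

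**Figure D1:**
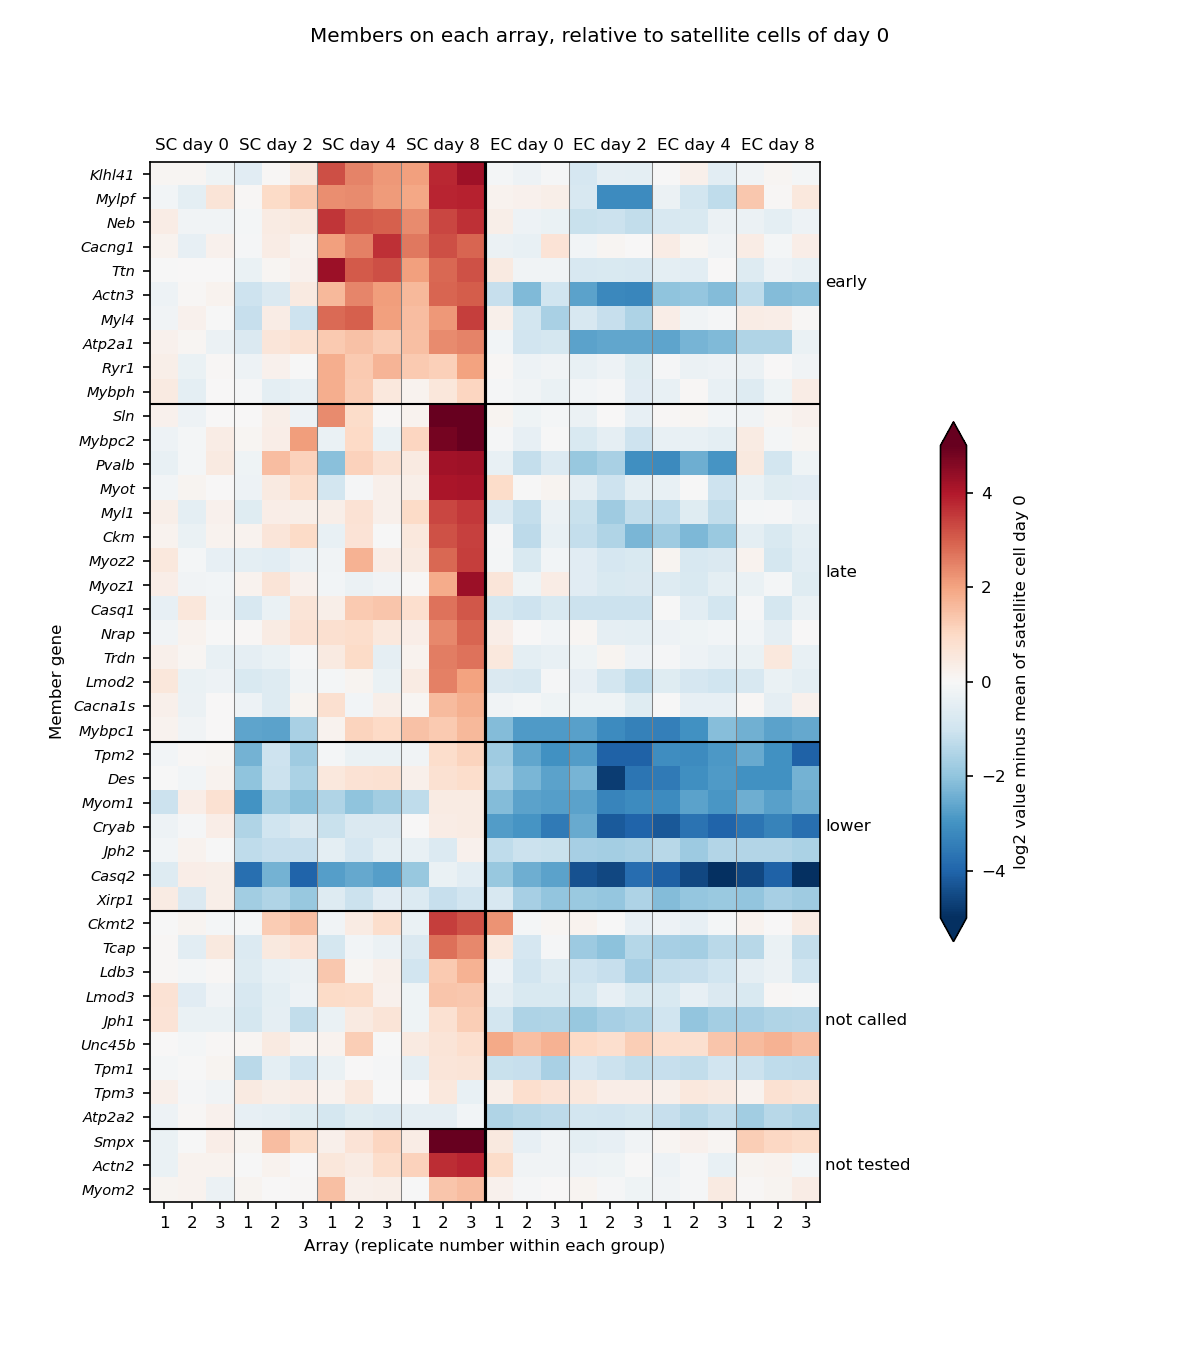
Every member (rows) on every array (columns, replicates 1 to 3 of each group), as the log2 value minus that member's mean on the 3 satellite arrays (SC) of day 0, with endothelial arrays (EC) on the right and colours saturating at the ends of the scale. Early risers are red on all 3 satellite arrays of day 4, while most late risers are red on replicates 2 and 3 of day 8 and near the day 0 level on replicate 1.

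The early, late and lower classes cut across the 7 roles. Early risers were found among thick filament, thin filament, Z-disc, assembly, calcium release and calcium uptake genes, and late risers in each of these roles and among the creatine kinases. The roles with the most early risers were the thick filament and M-band (4 of 9) and calcium release (2 of 8). The thin filament, Z-disc, assembly and calcium uptake roles held 1 each, and the creatine kinases 0. This spread is a count over few genes and was not tested.

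The sequence just before the start of a gene is where muscle regulators are known to bind, so 5 such sequences are shown, from members that stand for the 3 classes. Starts from RefSeq (build GRCm38.p6) were used for 29 of the 43 members, with member entries on a single chromosome left out. No chromosome was left out of the counts over all genes. The 250 bases before the start are printed from 5′ to 3′ on the gene's strand. For the early risers these are Ttn (chr2:76982548-76982797, minus strand) and Klhl41 (chr2:69669870-69670119, plus strand). The late risers shown are Mybpc2 (chr7:44524670-44524919, minus strand) and Ckm (chr7:19410844-19411093, plus strand), and Casq2 (chr3:102086165-102086414, plus strand) stands for the lower members. Capitals mark matches, on either strand, to the E-box CANNTG, to the MCAT element CATTCC, and to the MEF2 and CArG elements in their usual degenerate forms.
Ttn: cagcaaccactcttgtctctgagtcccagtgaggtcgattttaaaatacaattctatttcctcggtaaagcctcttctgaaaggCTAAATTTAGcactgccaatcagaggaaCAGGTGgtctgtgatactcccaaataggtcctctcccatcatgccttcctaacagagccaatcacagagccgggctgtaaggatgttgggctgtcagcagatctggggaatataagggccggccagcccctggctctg
Klhl41: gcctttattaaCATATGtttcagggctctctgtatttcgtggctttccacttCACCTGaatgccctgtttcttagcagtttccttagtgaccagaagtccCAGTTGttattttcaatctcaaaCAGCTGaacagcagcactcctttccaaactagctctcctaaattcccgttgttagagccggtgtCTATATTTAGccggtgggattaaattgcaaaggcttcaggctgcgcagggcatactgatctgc
Mybpc2: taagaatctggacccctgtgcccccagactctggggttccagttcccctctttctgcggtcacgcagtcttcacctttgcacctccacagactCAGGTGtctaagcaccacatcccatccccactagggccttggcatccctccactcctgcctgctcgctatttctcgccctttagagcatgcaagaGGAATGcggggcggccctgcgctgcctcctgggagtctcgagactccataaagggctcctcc
Ckm: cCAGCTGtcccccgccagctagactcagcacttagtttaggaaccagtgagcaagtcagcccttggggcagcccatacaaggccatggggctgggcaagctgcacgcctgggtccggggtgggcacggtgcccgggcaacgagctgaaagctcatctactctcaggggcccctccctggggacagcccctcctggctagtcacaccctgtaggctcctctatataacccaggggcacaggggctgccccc
Casq2: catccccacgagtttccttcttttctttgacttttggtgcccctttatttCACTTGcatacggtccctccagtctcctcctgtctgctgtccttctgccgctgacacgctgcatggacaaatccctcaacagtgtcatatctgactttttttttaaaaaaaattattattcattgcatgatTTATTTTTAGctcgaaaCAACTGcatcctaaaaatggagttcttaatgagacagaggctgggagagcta
In these letters Ttn has an E-box 138 bases and a MEF2 match 166 bases before its start. Klhl41 has 4 E-boxes, at 239, 198, 150 and 127 bases before the start, of which 1 is CAGCTG, and a MEF2 match at 63 bases. Mybpc2 has an E-box at 157 bases and an MCAT match at 62 bases, Ckm an E-box at 249 bases, and Casq2 E-boxes at 200 and 52 bases with a MEF2 match at 69 bases. An E-box was found in 25 of the 29 members, where 69.3% of 27025 genes have one in the same window. Its form CAGCTG, also counted as an E-box, was found in 16 of the 29, where 14.7% of genes have it. MEF2 matches were found in 5 members (1.99% of genes), MCAT in 5 (14.4%) and CArG in 2 (1.62%). By class, CAGCTG was in 4 of 7 early, 7 of 10 late and 3 of 5 lower members with an entry, and MEF2 in 2, 2 and 1. A match is a description of the letters in this window.

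The 9 thick filament and M-band genes held the member with the largest day 4 rise. Ttn, which encodes titin, was at 4.60, 4.62 and 4.64 on the 3 satellite arrays of day 0 and at 4.27, 4.70 and 4.84 on day 2. It reached 8.89, 7.67 and 7.84 on day 4 and was at 6.67, 7.48 and 7.82 on day 8. All day 4 and day 8 arrays lay above all arrays of the earlier days. The difference from day 0 was 3.51 on day 4 (SE 0.30, limma adjusted p = 7.42e-08) and 2.70 on day 8 (SE 0.30, adjusted p = 5.95e-06). From day 2 to day 4 it was 3.53 (SE 0.30, adjusted p = 6.04e-08). In the comparison of day 4 with day 2, 14 of 40 members were higher and 0 lower, beside 4.79% and 5.76% of all genes tested (limma, and 0 lower at an unadjusted p under 0.05 as well).

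The myosin light chains split between the classes. Mylpf, the regulatory light chain of fast fibres, was at 7.74, 7.38 and 8.52 on day 0, at 10.22, 10.23 and 10.00 on day 4 and at 9.82, 11.70 and 11.72 on day 8. Its groups did not overlap with day 0, and it rose 4.82-fold by day 4 (adjusted p = 0.00598) and 9.19-fold by day 8 (adjusted p = 0.000593). Myl4, an essential light chain of embryonic and atrial muscle, went from 4.79, 5.19 and 4.95 to 7.82, 7.98 and 7.01 on day 4 (2.63, SE 0.46, adjusted p = 0.000395) and was at 6.53, 7.13 and 8.42 on day 8. Myl1, the essential light chain of fast fibres, moved later. It was at 7.62, 6.85 and 7.53 on day 0, at 7.63, 8.07 and 7.60 on day 4, and at 8.28, 10.69 and 10.86 on day 8. Day 4 overlapped with day 0 and day 8 did not: the rise was 6.10-fold against day 0 (2.61, SE 0.47, adjusted p = 0.00084) and 4.52-fold against day 4 (adjusted p = 0.015).

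The myosin-binding proteins, which sit along the thick filament, each took a different course. Mybph, myosin-binding protein H, was called on day 4 (1.20, SE 0.32, adjusted p = 0.0123), from 5.09, 4.14 and 4.66 to 6.44, 5.89 and 5.15, and was 0.62 above day 0 on day 8 (adjusted p = 0.27). That call was lost without satellite day 0 replicate 2 or day 4 replicate 1, with an adjusted p of up to 0.0814. Mybpc2, the fast fibre form of myosin-binding protein C, was at 3.06, 3.22 and 3.68 on day 0, at 3.00, 4.33 and 2.97 on day 4, and at 4.41, 8.11 and 8.30 on day 8. All 3 day 8 arrays exceeded those of day 0 and day 4, by 3.62 (SE 0.68, adjusted p = 0.0014) and 3.51 (SE 0.68, adjusted p = 0.00738). Mybpc1, the slow fibre form, first fell and then rose. It went from 6.47, 6.12 and 6.31 on day 0 to 3.68, 3.61 and 4.67 on day 2, then to 6.48, 7.43 and 7.28 on day 4 and 7.77, 7.61 and 7.93 on day 8. The fall was 2.31 on the log2 scale (SE 0.33, adjusted p = 1.83e-05), and the day 8 level was 2.77-fold that of day 0 (adjusted p = 0.00624). It was the only late riser whose 3 day 8 arrays were level with each other. Without satellite day 4 replicate 1 Mybpc1 was called on day 4 as well.

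Of the 2 M-band genes 1 was tested, and it was not called higher on any day. This gene, Myom1, which encodes the M-band crosslinker myomesin, was at 5.10, 6.51 and 6.94 on day 0 and fell to 3.21, 4.45 and 4.15 on day 2 (-2.25, SE 0.43, adjusted p = 0.000445). It was still lower on day 4 (-1.74, adjusted p = 0.0073) and was at 4.92, 6.60 and 6.61 on day 8, within the day 0 range on replicates 2 and 3. Without satellite day 0 replicate 3, or with the satellite arrays alone, the day 4 call was lost (adjusted p up to 0.0545). Myom2, a second myomesin, was not tested. It was at 2.75, 4.16 and 4.32 on day 8 and between 2.49 and 2.96 on day 0, so replicates 2 and 3 of day 8 lay above the day 0 arrays.

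**Figure D2:**
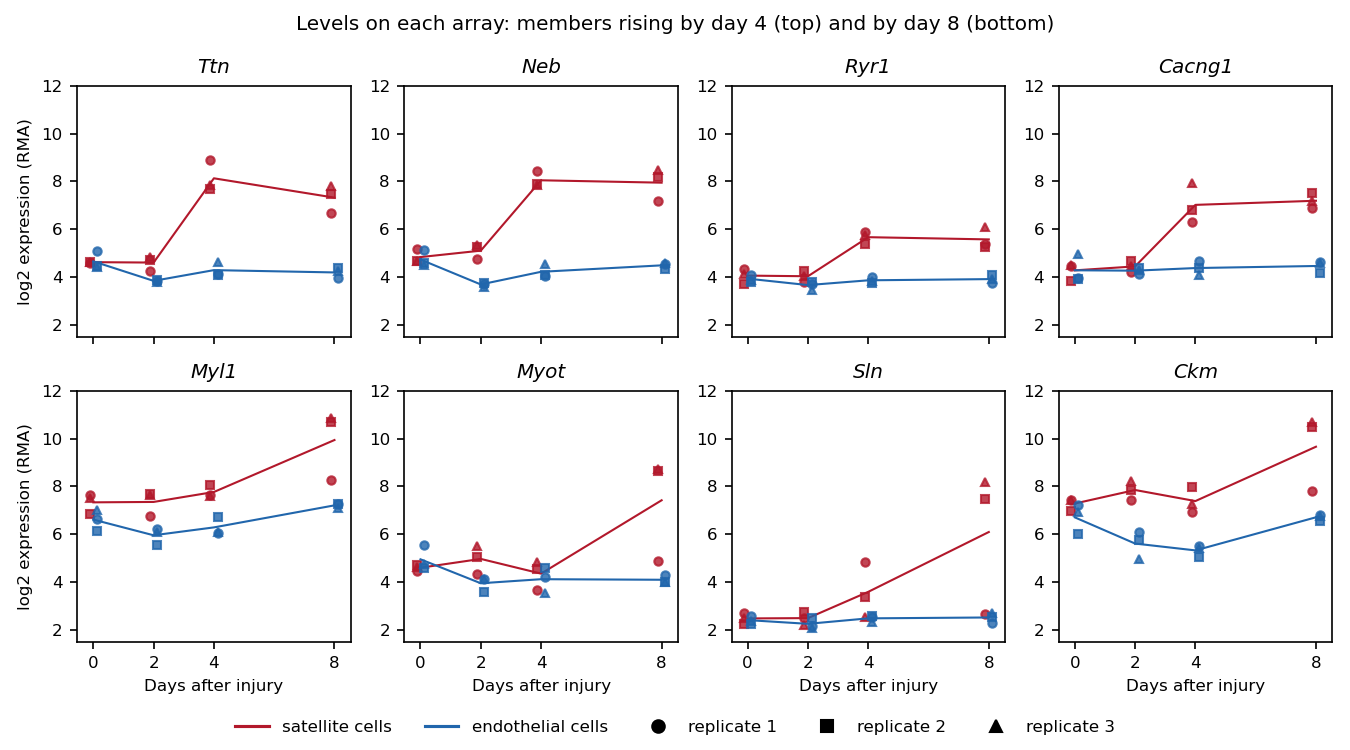
Log2 expression on each array of 4 early risers (top) and 4 late risers (bottom) against days after injury, with satellite cells in red, endothelial cells in blue, symbols for the replicates and lines through the group means. The early genes lie above their satellite day 0 arrays on all 3 satellite arrays of day 4. The late genes have their highest satellite mean on day 8, with replicate 1 of day 8 lowest in each of the 4 late panels. On day 2 the satellite arrays of Ttn, Neb, Myl1, Myot and Ckm already lie above the endothelial ones.

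Among thin filament genes, Neb rose early, Lmod2 late, and the 3 tropomyosins were not called higher than on day 0. Neb encodes nebulin, the protein that runs along the thin filament. It was at 5.19, 4.66 and 4.65 on day 0, at 4.74, 5.25 and 5.32 on day 2, at 8.42, 7.89 and 7.84 on day 4, and at 7.19, 8.19 and 8.47 on day 8. The day 4 and day 8 arrays lay clear of the earlier ones, with differences from day 0 of 3.21 (SE 0.28, adjusted p = 1e-07) and 3.11 (SE 0.28, adjusted p = 3.02e-07). Lmod2 encodes leiomodin 2, which starts and lengthens thin filaments. It was at 5.12, 4.23 and 4.31 on day 0, at 4.44, 4.70 and 4.21 on day 4, and at 4.98, 7.07 and 6.56 on day 8. Replicate 1 of day 8 lay inside the day 0 range, and the difference was 1.65 from day 0 (SE 0.39, adjusted p = 0.00822) and 1.75 from day 4 (adjusted p = 0.0186). Its relative Lmod3 was at 3.51, 5.09 and 5.08 on day 8 against 4.44, 3.16 and 3.54 on day 0 (0.85, adjusted p = 0.173).

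The tropomyosins, which lie in the groove of the thin filament, were already well above the array medians on day 0. Tpm2 fell from 9.95, 10.12 and 10.16 to 7.71, 9.03 and 8.29 on day 2, a 3.33-fold difference (adjusted p = 0.00359). It was at 9.99, 9.75 and 9.75 on day 4 and at 9.91, 10.95 and 11.20 on day 8. Day 4 was called higher than day 2 (1.49, limma adjusted p = 0.0212), a call lost in 4 of 34 alternative fits. Tpm1 was at 9.22 ± 0.11 (mean ± SD, n = 3) on day 0, 8.30 ± 0.44 on day 2 and 9.49 ± 0.62 on day 8. On the same days Tpm3 was at 5.74 ± 0.21, 6.13 ± 0.07 and 5.79 ± 0.45. Neither was called against day 0 on any day.

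Of the 7 Z-disc genes, 1 rose early and 3 late. The early one, Actn3, encodes the alpha-actinin of fast fibres, which crosslinks thin filaments at the Z-disc. It was at 7.04, 7.34 and 7.48 on day 0, at 8.89, 9.73 and 9.38 on day 4 and at 8.92, 10.19 and 10.31 on day 8. The groups did not overlap, and Actn3 rose 4.14-fold by day 4 (adjusted p = 0.00103) and 5.75-fold by day 8 (adjusted p = 0.000261). Actn2, the other sarcomeric alpha-actinin, could not be tested. It was at 2.75, 3.28 and 3.26 on day 0, at 3.66, 3.50 and 3.97 on day 4, and at 4.23, 6.78 and 6.89 on day 8.

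Myot, which encodes the Z-disc protein myotilin, was at 4.45, 4.72 and 4.61 on day 0, at 3.67, 4.52 and 4.85 on day 4, and at 4.88, 8.66 and 8.72 on day 8. Replicate 1 of day 8 was just above the day 0 arrays and the other two lay far above them. The difference was 2.83 from day 0 (SE 0.65, adjusted p = 0.0071) and 3.08 from day 4 (SE 0.65, adjusted p = 0.013). Myoz1 and Myoz2 encode calsarcins, Z-disc proteins that bind calcineurin. Myoz1 was at 3.50 to 4.02 on day 0, 3.40 to 3.57 on day 4, and 3.73, 5.53 and 7.97 on day 8 (2.06, SE 0.58, adjusted p = 0.0282). Myoz2 was at 3.41 to 4.35 on day 0 and at 4.29, 6.70 and 7.27 on day 8 (2.26, SE 0.55, adjusted p = 0.0107). In both genes replicate 1 of day 8 overlapped with day 0.

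The 2 other Z-disc genes were not called, with day 8 arrays that lay far apart. Tcap, which encodes the titin cap protein telethonin, was at 6.15, 5.56 and 6.56 on day 0 and at 5.35, 8.83 and 8.49 on day 8 (1.47, SE 0.61, adjusted p = 0.151). Ldb3, a Z-disc PDZ and LIM domain protein, was at 5.14, 4.98 and 5.15 on day 0 and at 4.13, 6.39 and 6.82 on day 8 (0.69, adjusted p = 0.406). For both, replicate 1 of day 8 was below all day 0 arrays and replicates 2 and 3 above them.

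Of the 7 assembly and attachment genes, 1 rose early, 1 late and 3 were lower on day 2. The early riser Klhl41 encodes a kelch protein known to stabilise nebulin. It was at 4.73, 4.76 and 4.44 on day 0, at 4.08, 4.72 and 5.15 on day 2, at 7.87, 7.12 and 6.83 on day 4, and at 6.68, 8.40 and 8.90 on day 8. Every day 4 and day 8 array lay above every earlier one, by 2.63 on day 4 (SE 0.40, adjusted p = 7.46e-05) and 3.35 on day 8 (SE 0.40, adjusted p = 9.72e-06) against day 0. Nrap, a nebulin-related protein of forming myofibrils, was late: 3.30, 3.63 and 3.45 on day 0, 4.27, 4.34 and 4.00 on day 4, and 3.81, 5.86 and 6.38 on day 8 (1.89, SE 0.40, adjusted p = 0.00403). Its day 4 arrays also lay above those of day 0, with a difference of 0.74 that was not called (adjusted p = 0.238). Smpx, a small muscle protein of the costamere, was not tested because 2 arrays lay above the median. It was at 2.10 to 2.74 on day 0, 2.67 to 3.48 on day 4, and 2.78, 7.66 and 8.05 on day 8.

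The other genes of this role were lower on day 2 or not called. Des, the intermediate filament protein desmin that ties myofibrils together, fell 2.93-fold on day 2 (adjusted p = 0.00712), from 9.01, 8.86 and 9.17 to 7.01, 7.94 and 7.44. It was at 9.55, 9.74 and 9.79 on day 4 and at 9.26, 9.77 and 9.88 on day 8. All arrays of both days lay above those of day 0, by 0.68 and 0.62, which were not called. Cryab, a small heat shock protein that binds desmin, fell 2.11-fold on day 2 (adjusted p = 0.0199), from 9.24, 9.44 and 9.86 to 7.99, 8.50 and 8.81, a call lost without satellite day 0 replicate 3 or day 2 replicate 1 (adjusted p up to 0.107). Xirp1, an actin-binding protein of attachment sites, was at 5.89, 4.77 and 5.79 on day 0 and at 3.74, 3.97 and 3.60 on day 2 (-1.72, SE 0.29, adjusted p = 0.00011). It was at 4.79, 4.33 and 4.54 on day 8. Unc45b, the chaperone that folds myosin heads, stood at 4.29 ± 0.07 on day 0 and 4.95 ± 0.20 on day 8 (0.65, adjusted p = 0.12).

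The genes of the calcium release unit did not move together. Ryr1, the calcium release channel itself, was at 4.35, 3.71 and 4.11 on day 0, at 3.80, 4.26 and 4.03 on day 2, at 5.88, 5.38 and 5.74 on day 4 and at 5.38, 5.26 and 6.08 on day 8. All arrays of days 4 and 8 lay above all arrays of days 0 and 2, by 1.61 (SE 0.23, adjusted p = 3.26e-05) and 1.52 (SE 0.23, adjusted p = 0.000141) against day 0. Cacng1 encodes the gamma subunit of the voltage sensor. It went from 4.47, 3.85 and 4.51 on day 0 to 6.32, 6.80 and 7.94 on day 4 (2.74, SE 0.34, adjusted p = 7.13e-06) and 6.91, 7.50 and 7.17 on day 8 (2.92, SE 0.34, adjusted p = 7.5e-06). Cacna1s, the voltage-sensing subunit of the same channel, was at 4.32, 3.77 and 4.08 on day 0, at 4.84, 3.92 and 4.34 on day 4, and at 4.17, 5.64 and 5.82 on day 8. Day 4 overlapped with day 0, as did replicate 1 of day 8, and the day 8 difference was 1.15 (SE 0.34, adjusted p = 0.0347).

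Around the channel, the calcium store proteins diverged. Casq1, the calsequestrin of fast fibres, was late: 4.28, 5.29 and 4.55 on day 0, 5.01, 6.01 and 6.08 on day 4, and 5.53, 7.43 and 7.83 on day 8 (2.22, SE 0.47, adjusted p = 0.00355). Casq2, the calsequestrin of cardiac and slow muscle, was well above the array medians before injury and fell. It went from 9.05, 10.05 and 10.00 on day 0 to 5.93, 7.32 and 5.70 on day 2, and was at 6.96, 7.15 and 6.96 on day 4 and 7.82, 9.37 and 9.18 on day 8. The fall was 10.4-fold on day 2 (adjusted p = 8.92e-06) and 6.40-fold on day 4 (adjusted p = 0.00026). Its rise from day 4 to day 8 was 3.41-fold, with an adjusted p of 0.0491 that was above 0.05 in 22 of 34 alternative fits (up to 0.239). Trdn, which encodes triadin, the link between calsequestrin and the ryanodine receptor, was at 4.29, 4.11 and 3.67 on day 0 and at 4.19, 6.59 and 6.75 on day 8 (1.82, SE 0.48, adjusted p = 0.0197). Replicate 1 of day 8 lay within its day 0 range.

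The junctophilins hold the surface membrane and the sarcoplasmic reticulum together. Jph2 fell on day 2, from 5.39, 5.69 and 5.52 to 4.28, 4.39 and 4.38 (-1.18, SE 0.20, adjusted p = 0.000114), with no overlap. Jph1 was at 5.49 ± 0.59 on day 0, 4.65 ± 0.39 on day 2 and 6.08 ± 0.73 on day 8. It was not called against day 0.

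**Figure D3:**
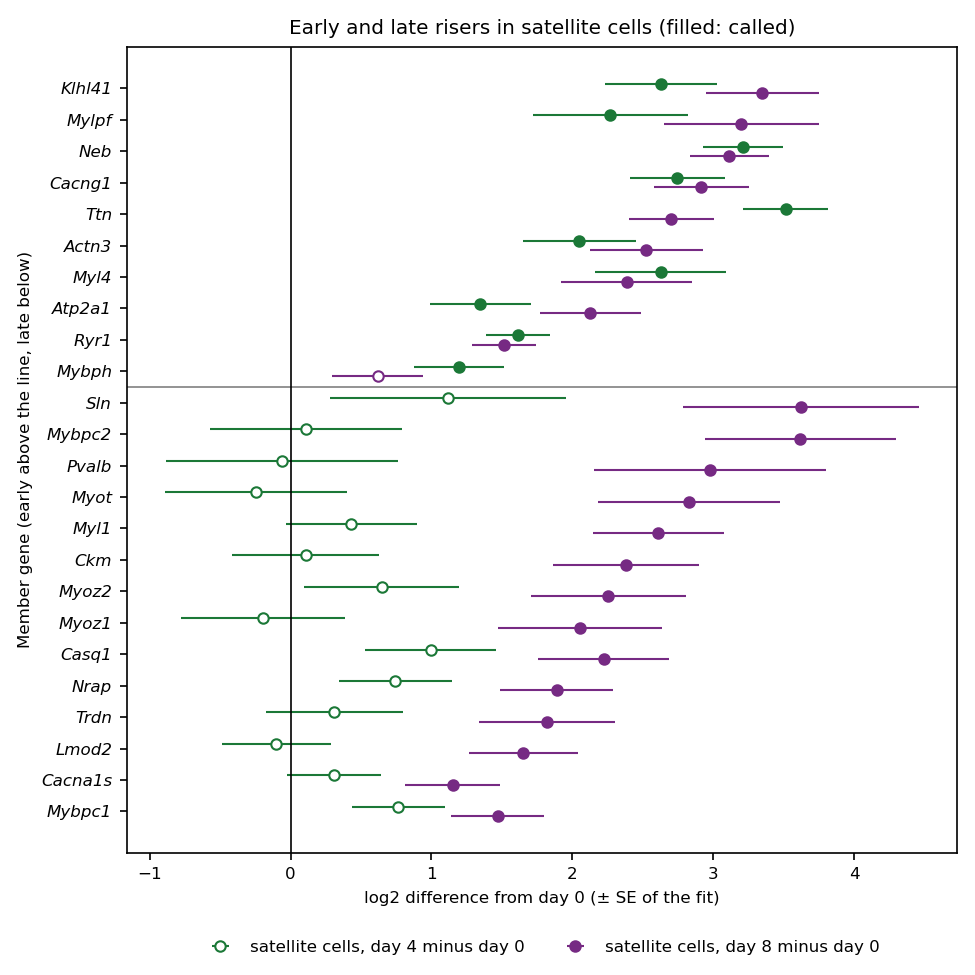
Log2 difference from day 0 on day 4 (green) and day 8 (purple) in satellite cells for the 10 early risers (above the line) and 14 late risers (below), with bars for the SE of the limma fit and filled points for called differences. The day 4 and day 8 points lie near each other for most early risers, while the day 4 points of the late risers run from -0.25 to 1.12 and their day 8 points from 1.15 to 3.62.

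Of the 4 calcium uptake and buffering genes, 1 rose early and 2 late. Atp2a1, the SERCA1 pump of fast fibres, was at 7.69, 7.60 and 7.18 on day 0, at 8.81, 8.95 and 8.76 on day 4 and at 9.01, 9.87 and 9.98 on day 8. It rose 2.54-fold by day 4 (adjusted p = 0.0113) and 4.37-fold by day 8 (adjusted p = 0.000456), with no overlap. The day 4 call was lost without satellite day 0 replicate 3 (adjusted p = 0.0545). Sln encodes sarcolipin, a small inhibitor of the pump. It was at 2.69, 2.23 and 2.49 on day 0, at 4.84, 3.38 and 2.53 on day 4, and at 2.64, 7.46 and 8.17 on day 8. Replicates of day 4 and day 8 were spread over several log2 units, and the day 8 difference was 3.62 (SE 0.84, adjusted p = 0.00761). Pvalb, the calcium buffer parvalbumin of fast fibres, was at 7.32, 7.59 and 8.12 on day 0, at 5.58, 8.83 and 8.44 on day 4, and at 8.14, 11.89 and 11.93 on day 8, a 7.87-fold rise (adjusted p = 0.0254). Atp2a2, the SERCA2 pump of slow and cardiac muscle and of other cells, was at 10.05 ± 0.25 on day 0, 9.56 ± 0.10 on day 2, 9.32 ± 0.13 on day 4 and 9.71 ± 0.19 on day 8. It was not called.

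The creatine kinases buffer ATP beside the myofibrils and in mitochondria. Ckm, the cytosolic muscle form, was at 7.45, 6.95 and 7.45 on day 0, at 6.92, 7.96 and 7.28 on day 4 and at 7.81, 10.48 and 10.70 on day 8. It was 5.21-fold higher on day 8 than on day 0 (adjusted p = 0.00491) and 4.84-fold higher than on day 4 (adjusted p = 0.0228), with replicate 1 of day 8 inside the day 4 range. Ckmt2, the mitochondrial form of striated muscle, was at 3.38, 3.55 and 3.29 on day 0 and at 3.06, 6.85 and 6.58 on day 8 (2.09, SE 0.70, adjusted p = 0.0688).

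The late class rests on replicates 2 and 3 of day 8. On those 2 arrays the late risers lay a median of 3.10 above the day 0 mean, and on replicate 1 a median of 0.45. For the early risers the same medians were 3.00 and 1.79. Replicate 1 of day 8 was above all 3 day 0 arrays for 9 of 10 early risers and for 8 of 14 late ones. It was the lowest day 8 array for 9 of 10 early and 13 of 14 late risers. The same held for 7 of 9 members not called, 5 of 7 lower members and 3 of 3 untested ones, so it was not particular to the risers. The shares over all genes tested were not counted, and the late class was itself picked on its day 8 values. The largest gaps between replicate 1 and the mean of the other two were in Sln (-5.17), Smpx (-5.07), Myot (-3.81), Mybpc2 (-3.80) and Pvalb (-3.77). Myog and the embryonic muscle genes lay closer together: Myog was at 10.33, 10.50 and 10.44 on the 3 arrays, and the mean over 6 embryonic and neonatal muscle genes outside the list was 7.11, 7.26 and 7.76. On the 3 endothelial arrays of day 8 the late risers averaged 4.52, 4.27 and 4.39 and the early risers 5.19, 5.04 and 5.26. Replicate numbers are not known to pair the cell types. Leukocyte markers on the 3 satellite arrays averaged 6.69, 5.36 and 6.62, and satellite cell and myoblast markers 8.99, 8.51 and 8.52. The mean over 12 endothelial markers was 6.94, 8.13 and 7.86, lowest on replicate 1 as in the late risers, against 6.20 to 6.47 on satellite day 0. Fibroadipogenic markers averaged 6.95, 7.48 and 7.23, and pericyte and smooth muscle markers 8.42, 8.85 and 8.49. The part of cell content in the gap was not tested.

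Without replicate 1 of day 8, 17 members were late and 11 early, with Lmod3, Tcap, Ldb3 and Ckmt2 added to the late class and Sln moved to the early one. Without replicate 2 or without replicate 3, 5 members were late (Myl1, Mybpc1, Mybpc2, Casq1 and Ckm), and 9 left the class. Of these, Lmod2, Myot, Cacna1s, Trdn and Pvalb were tested and not called on day 8. The other 4, Myoz1, Myoz2, Nrap and Sln, were not tested there, since 2 arrays above the median remained and the filter needs 3. In the same refits the 10 early risers remained. The count of members called on day 8 against day 0 was 14 without either of those replicates. The count for day 8 against day 4 was 18 without replicate 1 and 0 without replicate 2 or 3. That count was also 1 without day 4 replicate 1 and 2 without day 4 replicate 3. Leaving out 1 day 0 array also ended the call of Myoz1, Myoz2, Cacna1s, Trdn or Pvalb against day 0. Over all alternative fits in which it was tested, the adjusted p reached 0.142 for Myoz1 and 0.189 for Cacna1s.

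**Figure D4:**
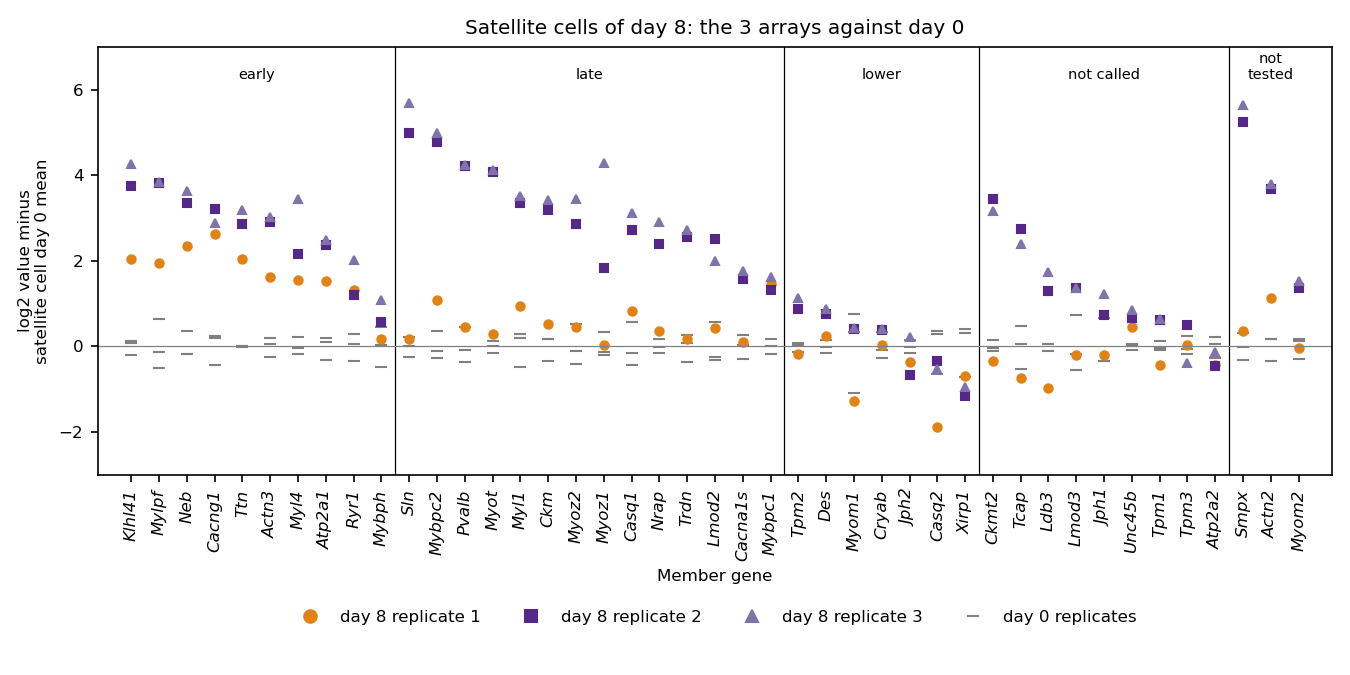
The 3 satellite arrays of day 8 for every member, as the log2 value minus that member's day 0 mean (vertical axis), with the day 0 arrays as grey dashes and the members grouped by class. Replicate 1 (orange) lies among the day 0 dashes for many late risers, with a median of 0.45, and above them for most early risers, with a median of 1.79.

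The 8 members that fell in satellite cells on day 2 were, in order of size, Casq2 (-3.38), Mybpc1 (-2.31), Myom1 (-2.25), Tpm2 (-1.73), Xirp1 (-1.72), Des (-1.55), Jph2 (-1.18) and Cryab (-1.08). Of these, Casq2 and Myom1 were still lower on day 4, and none of the 8 was lower on day 8. Markers of other cells moved on the same arrays. Of 12 leukocyte markers 12 rose on day 2, and 6 of 9 satellite cell and myoblast markers and 9 of 10 pericyte and smooth muscle markers fell. Of 12 endothelial markers 7 rose and 0 fell, and of 9 fibroadipogenic markers tested 1 rose and 5 fell. The endothelial mean was 6.82, 8.77 and 7.07 on the 3 arrays of day 2. The mean of the pericyte and smooth muscle list was 9.05 to 9.83 on day 0, 6.42 to 7.97 on day 2, 6.99 to 7.14 on day 4 and 8.42 to 8.85 on day 8. Its defining gene Myh11, the smooth muscle myosin, was at 10.18, 10.55 and 10.74 on day 0, 6.72, 8.31 and 6.48 on day 2, 6.42, 6.31 and 6.20 on day 4, and 9.25, 9.20 and 8.88 on day 8. Smooth muscle is known to express Des, Tpm2 and Casq2 too. On day 2 replicate 2, the highest of that day for Myh11, 6 of the 8 members were also the highest of the 3 (Casq2, Myom1, Tpm2, Xirp1, Des and Jph2). For Jph2 the margin was small (4.39 against 4.38 on replicate 3). Mybpc1 (4.67) and Cryab (8.81) were highest on replicate 3. Replicate 2 also had the lowest leukocyte mean of that day (9.31, against 10.85 and 10.80 on replicates 1 and 3). Its endothelial mean (8.77) and its satellite cell and myoblast mean (5.15, against 5.06 and 5.01) were the highest. The part of smooth muscle or other cells in the falls was not tested.

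**Figure D5:**
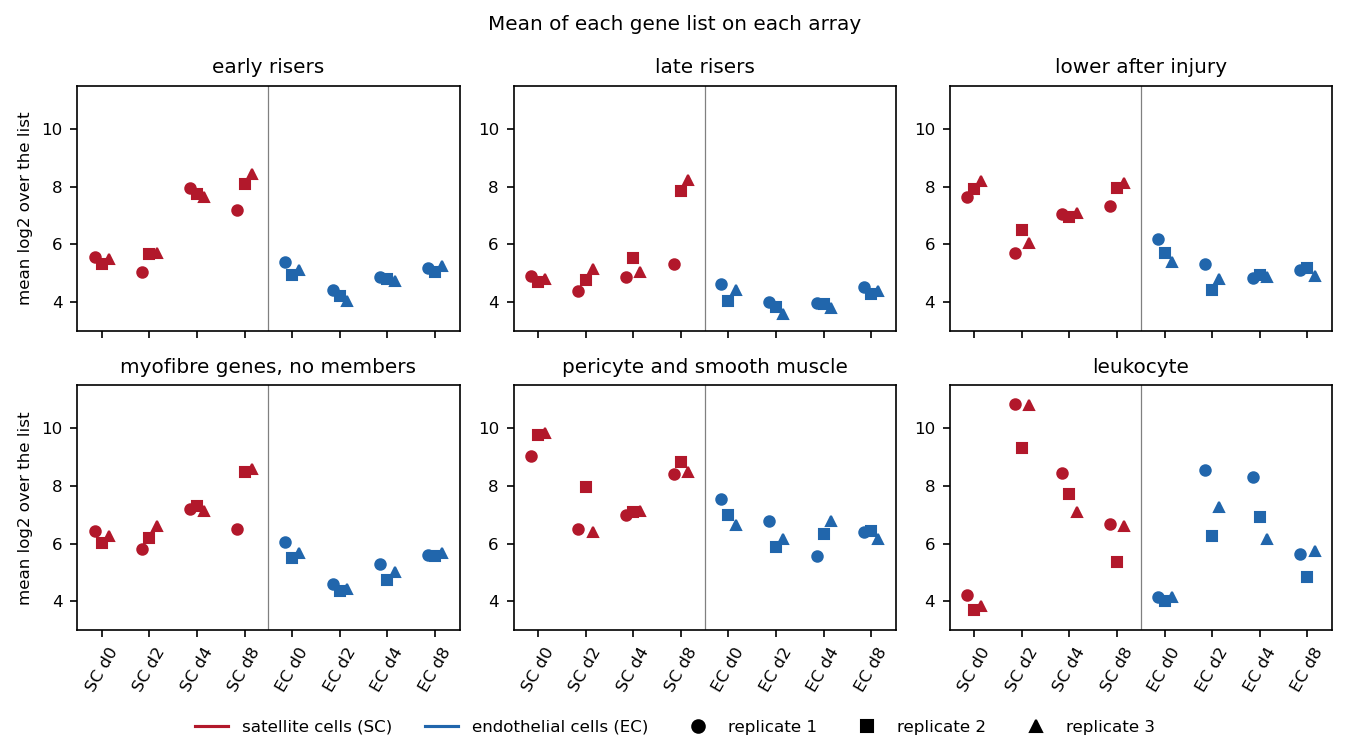
Mean log2 value over each list on each array (horizontal axis: cell type and day), for the early, late and lower members (top) and for myofibre genes outside the list, pericyte and smooth muscle markers and leukocyte markers (bottom). The lower members and the pericyte list are both lowest in satellite cells on days 2 and 4, and the late risers and the other myofibre genes are both higher on replicates 2 and 3 of satellite day 8 than on replicate 1.

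Endothelial arrays held several of the same transcripts, and no member was called higher there after injury. Of the 40 tested, 0 were higher and 6 lower on day 2, beside 3.73% and 3.01% of all genes tested. On day 4, 0 were higher and 2 lower (3.11% and 2.22% of all genes), and on day 8, 0 higher and 1 lower (1.11% and 0.946%). At an unadjusted limma p under 0.05 the members higher were 1, 0 and 1 on these days. Mylpf was at 8.05, 8.10 and 8.16 on endothelial day 0 and at 7.07, 4.75 and 4.72 on day 2, a 6.01-fold fall (adjusted p = 0.00487). It was back at 9.22, 7.94 and 8.42 on day 8. Atp2a1 fell by 1.96 on the log2 scale on day 2 (SE 0.36, adjusted p = 0.00137), from 7.34, 6.52 and 6.62 to 4.82, 4.90 and 4.88, and was lower on day 4 too (-1.73, adjusted p = 0.00413). Casq2 fell on all 3 days, by 1.91, 2.40 and 2.22, from 7.82, 7.26 and 7.02 on day 0 to 5.16, 5.66 and 4.63 on day 8. Neb, Actn3 and Des fell on day 2, by 1.04, 1.61 and 1.40. The mean over the 16 other myofibre genes on the same arrays was 5.49 to 6.07 on day 0, 4.36 to 4.61 on day 2, 4.73 to 5.31 on day 4 and 5.57 to 5.67 on day 8. The part of fibre RNA in these levels was not tested. Without endothelial day 0 replicate 1 or day 2 replicate 2 the day 2 count was 2, and without day 2 replicate 3 it was 3. The day 4 count was 5 without satellite day 8 replicate 1, and the day 8 call of Casq2 was lost without endothelial day 0 replicate 1 or day 8 replicate 3 (adjusted p up to 0.068).

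Set against endothelial cells of the same day, more members were higher in satellite cells on days 4 and 8 than on days 0 and 2. On day 0, 12 members were higher and 1 lower, beside 7.59% and 9.43% of all genes tested. On day 2 it was 11 and 0 (5.82% and 6.31% of all genes), on day 4 23 and 0 (5.20% and 7.73%) and on day 8 34 and 0 (7.05% and 6.88%). The members lower at an unadjusted limma p under 0.05 were 2 at rest and 1 on each later day. The median difference over the 40 members was 0.56, 0.78, 1.45 and 2.49 on these days, beside -0.01, -0.05, 0.02 and -0.03 over all genes. At rest the largest differences were in Cryab (3.09, SE 0.34, adjusted p = 5.13e-07), Mybpc1 (2.61, SE 0.33), Myom1 (2.54, SE 0.43), Tpm2 (2.47, SE 0.42) and Casq2 (2.33, SE 0.45). Unc45b was the member lower in satellite cells, at 4.31, 4.21 and 4.36 against 6.17, 5.78 and 6.05 (-1.71, SE 0.25, adjusted p = 2.48e-05). On day 2 the largest were Mylpf (3.14), Pvalb (3.03), Atp2a1 (2.85), Actn3 (2.63) and Cryab (2.51). The members with the largest differences on day 4 were Actn3 (4.08, SE 0.40, adjusted p = 3.47e-07), Ttn (3.84), Neb (3.83), Des (3.83) and Atp2a1 (3.74). Those of day 8 were Actn3 (4.36, SE 0.40, adjusted p = 1.54e-07), Mybpc1 (4.01), Cryab (3.87), Tpm2 (3.81) and Casq2 (3.64). For Actn3 the day 8 difference is 20.5-fold, and no satellite array of that day overlapped with an endothelial one. Markers of other cells differed too. Of 10 pericyte and smooth muscle markers, 8, 1, 3 and 8 were higher in satellite cells on days 0, 2, 4 and 8, and 0, 1, 1 and 0 were lower. Of 9 fibroadipogenic markers tested, 7, 7, 5 and 6 were higher and 0 were lower on any day. The part of these cells in the member differences was not tested.

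The change from day 0 was also compared between the cell types, as the difference of the differences. On day 4 it was called for 8 members, all with the larger change in satellite cells (2.00% of all genes tested were called in that direction and 2.24% in the other). These are 8 of the 10 early risers. The classes and this term share the satellite difference from day 0, so their overlap was largely fixed in advance and is no separate result. The largest terms on day 4 were in Ttn (3.88, SE 0.43, adjusted p = 9.12e-06) and Neb (3.73, SE 0.40, adjusted p = 6.04e-06). On day 8 it was called in the same direction for 9 members (1.39% of all genes, and 0.811% in the other), among them the late risers Myot (3.68, SE 0.92, adjusted p = 0.0355) and Nrap (2.16, SE 0.57, adjusted p = 0.0491). Both of these calls were lost when any single day 0 array was left out. Without satellite day 8 replicate 1 the day 8 count was 23. On day 2 it was called for 3 members in each direction (6.44% and 5.03% of all genes). Mylpf, Neb and Atp2a1 fell in endothelial cells and had no called change in satellite cells, and Mybpc1, Tpm1 and Xirp1 had the lower change in satellite cells. The day 2 count was 3 without satellite day 0 replicate 3 or day 2 replicate 3.

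Other genes of the same structures were followed from separate lists. Of 35 listed symbols of other sarcomere genes, 32 matched a symbol of the array annotation and 28 were tested. Of these, 2 rose and 5 fell on day 2, 5 rose and 2 fell on day 4, and 12 rose and 1 fell on day 8. Day 8 was higher than day 4 for 4 of them and lower for 0. Of 24 listed symbols of other triad and calcium genes, 22 matched and 21 were tested. Of these, 0 rose and 3 fell on day 2, 3 rose and 2 fell on day 4, and 4 rose and 0 fell on day 8. Between day 4 and day 8, 0 differed in either direction (limma, with 6 higher and 0 lower at an unadjusted p under 0.05). The median day 8 difference from day 0 was 0.89 and 0.24 in these lists, beside 1.74 in the members. Cavin4, a muscle caveolar protein, rose by day 2 (1.90), day 4 (4.26, SE 0.60, adjusted p = 3.33e-05) and day 8 (2.99). Csrp3, a Z-disc LIM protein (3.23), and Hspb6, a small heat shock protein (2.65), rose on day 8, and Srl, the calcium-binding sarcalumenin, on day 4 (2.60). Dmd, which encodes dystrophin, fell by 4.04 on day 2, by 3.50 on day 4 and by 1.30 on day 8. Mrln, the pump inhibitor myoregulin, had the largest fall of day 2 (-5.53, SE 0.49, adjusted p = 5.28e-08). Sln, which encodes another pump inhibitor, was at 2.69, 2.23 and 2.49 on day 0 and at 2.49, 2.75 and 2.21 on day 2. Both sets lie below the array medians, so a fall of Sln could hardly have been seen. The other genes of largest called change were Pdlim3 (-2.38) and Tmod4 (1.04) on day 2, and Fhl1 (-1.58), Atp2a3 (-1.50) and Trim55 (1.39) on day 4.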

How the data were processed

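RNA was extracted with RNeasy Mini, amplified with Nugen Ovation PicoV2 and hybridised to MoGene 2.0 ST arrays, per the labels' protocols and array names. The deposited values are log2 values per probe set, made with RMA per the submitters' processing notes; its version and a genome build are not given in the sources used here. The deposited table holds 24479 probe sets, of which 23281 carry a symbol of the platform annotation and 1198 carry none. RMA as commonly run includes quantile normalization, after which a level is relative to the other genes of its array. Values near background understate changes.

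Groups came from the titles. The cell type and time point fields disagree with the titles in many samples and were not used. Array order follows day order, so the 2 cannot be told apart. P-values measure the spread between replicates, whose source is not described further.

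Limma 3.58.1 (R 4.3.3) fitted all 24 arrays as 8 group means, leaving 16 residual degrees of freedom, with eBayes moderation, after a check on simulated data. Genes above the array median on at least 3 arrays were tested, two-sided, with Benjamini-Hochberg adjustment over 14064 genes. Calls needed an adjusted p under 0.05 and a log2 difference of at least 1. Folds are printed where the lower group mean lay at least 1 above the array medians. All members are described; full statistics were given for the 5 largest called differences per comparison and for members of each class, and of the other pathway genes the 3 largest called rises and falls per day were named. The members and lists were chosen with earlier results of these data known. Alternatives were other filters, array centring, array weights, other priors, the difference threshold, replicate blocks, 1 cell type alone and leaving out each array.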

Additional observations from a re-analysis of the deposited data

Results flagged for a closer look

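These results were flagged because the change from day 0 differed between the cell types by the interaction term of the limma fit (satellite cell change minus endothelial cell change, log2, adjusted p under 0.05 and a size of at least 1).

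On day 4 the change was larger in satellite cells for Ttn (3.88), Neb (3.73), Mylpf (3.32), Atp2a1 (3.08), Cacng1 (2.65), Actn3 (2.63), Klhl41 (2.60) and Ryr1 (1.68). Each of these rose in satellite cells on day 4. Atp2a1 also fell in endothelial cells, and none of the other 7 had a called change there on that day.

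On day 8 the term was called for Myot (3.68), Neb (3.36), Klhl41 (3.27), Ttn (3.17), Actn3 (2.91), Cacng1 (2.73), Atp2a1 (2.58), Nrap (2.16) and Ryr1 (1.53). Among them are 2 late risers whose call was lost under other settings. Myot lost it in 12 of 33 alternative fits, satellite day 8 replicates 2 and 3 left out in turn included (adjusted p up to 0.105). Nrap lost it in 21 of 29 (adjusted p up to 0.116), and it was not tested without either of those arrays, since too few arrays then lay above the median.

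On day 2 the term was above 0 for Mylpf (3.36), Atp2a1 (2.18) and Neb (1.31), which fell in endothelial cells, and below 0 for Mybpc1 (-1.83), Xirp1 (-1.42) and Tpm1 (-1.17). Mybpc1 and Xirp1 fell in satellite cells, and Tpm1 was not called in either cell type. Leukocyte markers averaged 9.31 to 10.85 on these satellite arrays and 6.26 to 8.55 on the endothelial ones, and their part in the result was not tested.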

How the results depend on the processing

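No result of a member changed sign with a call under any alternative. Of the results on single members, 19404 by setting kept their side of the threshold, 285 lost a call and 131 gained one.

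With the arrays of 1 cell type alone, satellite day 8 against day 0 gave 15 members, day 8 against day 4 gave 0, the late class 6, and endothelial day 4 gave 5. With array weights, day 8 against day 4 gave 13, and the difference of the changes between cell types on day 8 gave 17. With the stricter filter the late class was 8, since 6 late risers were then not tested, and with no filter it was 16, with Actn2 and Smpx. The early class stayed at 10 in each of these. Each symbol listed here has 1 probe set, so averaging probe sets changed nothing.

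Leaving out 1 array at a time gave these ranges of members called. Within satellite cells they were 7 to 9 on day 2 against day 0, 10 to 13 on day 4, 14 to 27 on day 8, 10 to 16 for day 4 against day 2 and 0 to 18 for day 8 against day 4. Within endothelial cells they were 2 to 8, 2 to 5 and 0 to 1 on days 2, 4 and 8. Between cell types they were 12 to 13, 8 to 13, 20 to 26 and 25 to 36 on days 0, 2, 4 and 8. The difference of the changes gave 3 to 9, 8 to 9 and 7 to 23 on days 2, 4 and 8. The early class held 9 to 11 members and the late class 5 to 17.

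Replicate numbers were checked as pairs of 1 day. Of 12 pairs by title number 4 correlated over 0.1, and of 11 by array name number 4 did (both -0.06 to 0.20), so the arrays were not treated as paired. With the replicate number as a block the early class was 10 and the late class 14 in all 3 forms, and day 8 against day 4 gave 7 with a fixed block and 5 with a random one (consensus correlations 0.041 and 0.048).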

Other observations

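Genes of embryonic and neonatal muscle outside the list rose in satellite cells on days 4 and 8, and some of them on endothelial arrays. Of 6 such genes 5 were tested, and 5 rose on day 4 (median difference from day 0 of 3.90) and 5 on day 8 (2.35). From day 4 to day 8, 0 rose and 2 fell (median -0.82), and on day 2 against day 0, 0 rose and 1 fell. In endothelial cells 0, 2 and 1 of the 5 rose on days 2, 4 and 8, and 0 fell. The mean over the 6 was 3.49 to 3.89 on endothelial day 0 and 4.51 to 5.29 on day 4. Actc1, the cardiac alpha-actin also made in embryonic muscle, was at 6.10, 7.15 and 5.50 on day 0, at 10.79, 10.11 and 9.52 on day 4, and at 10.81, 11.05 and 11.12 on day 8. Chrng, the fetal subunit of the acetylcholine receptor, was at 5.17, 4.43 and 4.27 on day 0, at 9.10, 8.69 and 9.07 on day 4, and at 5.93, 6.31 and 5.37 on day 8. Myh3, the embryonic myosin heavy chain, was at 7.78, 5.59 and 6.21 on day 4 and at 4.09, 4.04 and 5.86 on day 8. Replicate 1 of day 8, which was low in the late risers, had a mean of 7.11 over these 6 genes, against 7.26 and 7.76 on replicates 2 and 3.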
